A study of Homo sapiens with 52 samples.

Results

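The 38 genes described here are those of glycolysis and of the cell's response to low oxygen. They were taken by gene symbol from a list of enzymes, transporters and hypoxia-inducible genes, and all 38 were found among the 78894 genes of the deposited gene-level counts and TPM (a transcript level scaled for gene length and library size). The values come from bulk mRNA sequencing of 52 samples of 3 breast cancer cell lines of the claudin-low type, SUM159PT (17 samples), MDA-MB-231 (18) and HS578T (17), in which neuropilin-1 (NRP1, a co-receptor of several growth factor receptors) was knocked down. In each line, siNT, siNRP1#3 and siNRP1#5 cells had been reverse transfected with 20 nM siRNA and harvested at 72 h, while shNT, shNRP1#3 and shNRP1#5 cells had been transduced with lentiviral pLKO.1 shRNA, selected with puromycin and harvested 48 h after seeding, and NT stands for a non-targeting sequence. The 18 groups held 3 samples each, except that siNRP1#5 of SUM159PT lacked replicate 1 and shNRP1#3 of HS578T lacked replicate 3.

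All groups grew in high-glucose medium with serum, and no group was placed in low oxygen. siNRP1#5 and shNRP1#5 carry the same target sequence, which lies in both the transmembrane and the soluble NRP1 transcripts, whereas siNRP1#3 and shNRP1#3 carry different sequences, both in transmembrane NRP1 only. The shRNA replicates were consecutive passages of transduced cells. The spread behind each p-value was estimated over all 6 groups of a line. The shRNA p-values thus mix the spread between passages with that between siRNA replicates.

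Glycolysis takes glucose in through the GLUT transporters, splits it in a chain of cytosolic enzymes to pyruvate, and in fast-growing cells returns much of it as lactate through the monocarboxylate transporters. The transcription factor HIF, a dimer of an oxygen-labile alpha subunit and a stable beta subunit, raises many of these genes when oxygen falls. With oxygen present, the EGLN prolyl hydroxylases mark the alpha subunit for destruction by the VHL complex. EGLN3, ANKRD37, CA9, NDRG1, BNIP3 and ADM are among the genes best known for rising with HIF, and breast cancer cells often keep part of this programme on in ordinary culture.

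HIF binds DNA at a short core, ACGTG or GCGTG, and the promoters of CA9, BNIP3, ANKRD37, PDK1 and EGLN3 are printed here as examples that show how differently these cores are placed in them. Each window runs from 250 bases before the RefSeq transcription start to 50 bases after it (build GRCh38.p14), and capitals mark the cores. CACGT and CACGC are the cores read from the other strand, and CACGTG holds ACGTG on both strands. CA9 (carbonic anhydrase 9) lies at chr9:35673678-35673977 on the plus strand, BNIP3 (a mitophagy receptor) at chr10:131981874-131982173 on the minus strand, ANKRD37 (an ankyrin repeat protein) at chr4:185396591-185396890 on the plus strand, the PDK1 window at chr2:172555840-172556139 on the plus strand is the second of its 2 windows, and EGLN3 lies at chr14:33951025-33951324 on the minus strand.
CA9: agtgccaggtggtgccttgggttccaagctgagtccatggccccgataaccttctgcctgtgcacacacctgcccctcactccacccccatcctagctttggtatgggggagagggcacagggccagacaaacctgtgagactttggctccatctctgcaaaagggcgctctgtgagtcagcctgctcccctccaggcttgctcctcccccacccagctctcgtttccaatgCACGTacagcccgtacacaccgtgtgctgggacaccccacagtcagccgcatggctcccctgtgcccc
BNIP3: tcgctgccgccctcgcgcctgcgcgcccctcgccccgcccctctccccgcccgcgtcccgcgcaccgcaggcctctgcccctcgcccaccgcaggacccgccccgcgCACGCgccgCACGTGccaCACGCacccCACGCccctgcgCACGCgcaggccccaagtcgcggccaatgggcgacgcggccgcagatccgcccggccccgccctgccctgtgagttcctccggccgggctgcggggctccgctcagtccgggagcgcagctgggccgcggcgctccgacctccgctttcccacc
ANKRD37: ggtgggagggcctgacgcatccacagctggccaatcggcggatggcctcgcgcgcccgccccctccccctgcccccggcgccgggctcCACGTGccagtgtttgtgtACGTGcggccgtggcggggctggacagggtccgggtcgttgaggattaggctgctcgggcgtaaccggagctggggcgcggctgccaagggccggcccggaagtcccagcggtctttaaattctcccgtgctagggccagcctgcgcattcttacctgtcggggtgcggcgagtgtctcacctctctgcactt
PDK1: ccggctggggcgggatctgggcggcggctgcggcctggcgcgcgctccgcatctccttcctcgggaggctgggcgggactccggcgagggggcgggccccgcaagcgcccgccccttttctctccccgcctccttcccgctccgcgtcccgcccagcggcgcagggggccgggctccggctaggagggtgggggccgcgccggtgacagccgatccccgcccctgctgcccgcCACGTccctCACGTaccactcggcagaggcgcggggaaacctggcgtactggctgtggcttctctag
EGLN3: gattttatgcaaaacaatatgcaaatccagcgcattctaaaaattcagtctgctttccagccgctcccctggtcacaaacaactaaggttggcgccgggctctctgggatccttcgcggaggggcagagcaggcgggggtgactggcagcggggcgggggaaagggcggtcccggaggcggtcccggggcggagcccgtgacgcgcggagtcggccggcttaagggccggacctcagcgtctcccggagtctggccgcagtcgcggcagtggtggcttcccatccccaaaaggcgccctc

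CA9 held 1 core, 18 bases before the start (position -18), and PDK1 held 2, at -17 and -8. ANKRD37 held cores at -162, -161 and -143, where the first pair is the overlapping CACGTG. BNIP3 held 6, from -143 to -104, of which 4 were CACGC. The EGLN3 window held none of these letters, which says only that they are not in these bases. Promoter windows were found for 34 of the 38 members, 57 windows in all, of which 42 (73.7%) held either core and 24 (42.1%) held ACGTG on either strand, against 48.4% and 21.4% of all 35116 windows. Of the windows of the 18 members with a promoter whose level fell in MDA-MB-231 with shNRP1#5 (below), 69% held either core, against 78.6% for the other members. A match of letters is not a binding site, and no binding was measured.

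Expected counts per library ran from 25310443 to 72003442 (median 44804505), and all 38 members passed the filter on low counts in every line. The members together held 1.67 to 3.73% of each library's TPM. In the controls, ESR1 and PGR stayed at or under 0.21 TPM, and VIM was abundant in all lines, as the claudin-low label implies. The claudin genes CLDN3, CLDN4 and CLDN7 are low in such cells by that label. They read 6.7 to 13.4, 134 to 174 and 24.4 to 57.6 TPM in the MDA-MB-231 controls, and at most 0.1, 2.34 and 0.89 in those of the other lines. CDH1, also low by that label, read at most 0.75 TPM in MDA-MB-231, 0.27 in SUM159PT and 0.17 in HS578T. ERBB2 read 12.9 to 48.6 TPM over the 3 lines. Line medians were 4.45 to 13 TPM for ZEB1, 3.35 to 22.4 for SNAI1 and 7.7 to 91.5 for ITGA6. Some HS578T libraries held RNA of MDA-MB-231, measured by 26 genes whose mean in the controls was high in MDA-MB-231 and near 0 in HS578T. Their level reached 26.1, 16.7 and 13.3% of that in MDA-MB-231 in the 3 siNRP1#5 libraries, 2.16, 3.18 and 7.39% in siNRP1#3, and 0.64, 0.818 and 1.97% in siNT, and lay between 0.0844 and 0.425% in all HS578T shRNA libraries. By 3 genes high in every MDA-MB-231 control, the siNRP1#5 libraries held 22.6, 22.6 and 12%. Replicate 2 of HS578T siNRP1#5 also held 5.6% of the SUM159PT marker level, where the other HS578T libraries held at most 0.18%. For the members called in HS578T, values with the RNA of both other lines subtracted stand beside those as measured, while TPM shares, levels and genes of other lists are as measured only. The RNA subtracted was taken at the level of the other line's non-targeting control of the same delivery. RNA from cells with an NRP1 reagent would be subtracted wrongly for genes that the reagent changes there. Which cells the RNA came from was not tested.

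NRP1 itself was lower in all 12 comparisons with the matching control. Its log2 fold change with siNRP1#3, siNRP1#5, shNRP1#3 and shNRP1#5 for SUM159PT was -2.09, -4.31, -1.31 and -2.30, for MDA-MB-231 -0.70, -4.88, -1.48 and -1.05, and for HS578T -1.20, -2.66, -1.59 and -2.09. Only the HS578T shNRP1#3 value missed the threshold (adjusted p = 0.069, edgeR quasi-likelihood test with Benjamini-Hochberg adjustment over all genes tested in the line).

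In the non-targeting controls, the abundant enzymes ENO1 and ALDOA had medians of 3561 to 4355 TPM and of 2806 to 3249 TPM in the 3 lines. GAPDH was the highest member everywhere, with a median over the 6 control libraries of 12142 TPM in HS578T, 9982 in SUM159PT and 6438 in MDA-MB-231. SLC16A1 (MCT1, a lactate transporter) had a median of 51.8 TPM in SUM159PT (30.3 to 70.2), 15.4 in HS578T (12.2 to 25.5) and 0.145 in MDA-MB-231 (0.01 to 0.4). MDA-MB-231 thus had almost no SLC16A1, and the difference was 8.95 on the log2 scale from SUM159PT (SE 0.335, adjusted p = 2.01e-13) and 7.59 from HS578T (SE 0.321, adjusted p = 9.09e-13). Its relative SLC16A3 (MCT4, which exports lactate) was highest in that line, with 349 TPM (255 to 494) against 104 (69.8 to 183) in SUM159PT and 38.7 (24.5 to 56.4) in HS578T.

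HS578T was the line low in EGLN3, ALDOC (aldolase C) and SLC2A3 (GLUT3, a high-affinity glucose transporter). EGLN3 had a median of 0.205 TPM in HS578T (0.04 to 0.87), 12.8 in MDA-MB-231 and 19.3 in SUM159PT, ALDOC one of 0.48, 39.4 and 11, and SLC2A3 one of 2.84, 26.9 and 69.2 in the same order of lines. The ranges of HS578T and of the other lines did not overlap for any of these genes. HS578T was below SUM159PT by log2 values of -5.29 for EGLN3, -4.07 for SLC2A3 and -3.76 for ALDOC, and below MDA-MB-231 by -4.46 for EGLN3 and -5.17 for ALDOC (adjusted p = 1.45e-07 and 1.02e-09). The part of the MDA-MB-231 RNA held by HS578T siNT libraries in these low HS578T levels was not tested. ADM (adrenomedullin, a vasodilating peptide) was instead highest in HS578T, with 120 TPM (86.6 to 150) against 51.1 in MDA-MB-231 (30.3 to 60.8) and 13 in SUM159PT (9.6 to 28.1), a log2 difference of 3.36 from SUM159PT (SE 0.235).

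CA9 varied widely between libraries of 1 line. In HS578T its median was 25.6 TPM with a range of 6.21 to 112, against 5.12 (3.32 to 13.6) in MDA-MB-231, and the log2 difference between these lines was 3.10 (SE 0.431, adjusted p = 4.34e-06) although their ranges overlapped. NDRG1 (a stress-response gene), VLDLR (a lipoprotein receptor) and PFKFB4 (which makes the allosteric activator of phosphofructokinase) were low in SUM159PT against MDA-MB-231, by log2 values of -2.48, -2.48 and -2.29. Their medians were 40.5, 2.41 and 6.33 TPM in SUM159PT and 329, 15.4 and 36.4 TPM in MDA-MB-231, with no overlap of the ranges. In all, 31 of the 38 members differed between SUM159PT and MDA-MB-231 (11 higher, 20 lower) where 61.7% of all genes did (33.4% higher, 28.3% lower), 33 between HS578T and MDA-MB-231 (13 higher, 20 lower, where 73.2% of all genes did, 36.4% higher and 36.8% lower), and 30 between HS578T and SUM159PT (14 higher, 16 lower, where 66.4% of all genes did, 31% higher and 35.5% lower).

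**Figure D1:**
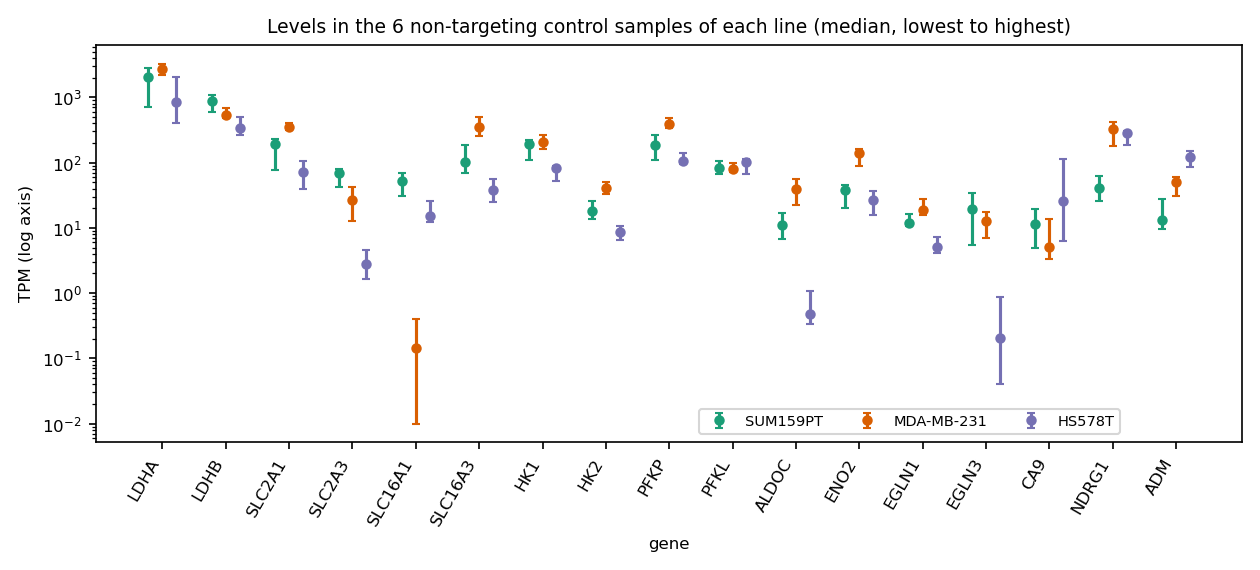
Levels of 17 members in TPM (log axis) in the 6 non-targeting control samples (siNT and shNT) of each cell line, as the median (point) and the lowest to highest sample (bar). SLC16A1 sits at 0.145 TPM in MDA-MB-231, and EGLN3, ALDOC and SLC2A3 sit lowest in HS578T, at 0.205, 0.48 and 2.84 TPM.

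Most enzyme pairs were led by the same paralogue in all lines. HK1 held 84.1 to 89.9% of the HK1 and HK2 TPM (mean of the 6 controls in each line), ALDOA at least 98.6% of the aldolase TPM, and ENO1 at least 96.8% of the enolase TPM. PFKP held 83.2% of the PFKP and PFKL TPM in MDA-MB-231 (SD 2.42), 67.6% in SUM159PT (SD 9.77) and 53.5% in HS578T (SD 4.84). SLC2A1 (GLUT1) held 95.4% in HS578T and 93.1% in MDA-MB-231 against SLC2A3, but 71.7% in SUM159PT (SD 10.1).
PFKFB3 held 85.6% against PFKFB4 in SUM159PT, but 50.1% in HS578T and 54.3% in MDA-MB-231. BNIP3 held 64.9, 73.4 and 54.8% against BNIP3L in SUM159PT, MDA-MB-231 and HS578T, and P4HA1 26.4, 56.3 and 33.2% against P4HA2 in the same order. The P4HA1 share in MDA-MB-231 was 49.4% (SD 1.54) in siNT and 63.1% (SD 2.54) in shNT. EGLN1 held 94.7% against EGLN3 in HS578T, 62.9% in MDA-MB-231 and 45.2% in SUM159PT. LDHA, which favours lactate, held 82.6% (SD 3.89) against LDHB in MDA-MB-231. Its share was higher in shNT than in siNT in every line, by least in MDA-MB-231. It was 53.9 ± 7.71% in siNT and 77.6 ± 1.79% in shNT of SUM159PT, and 56.1 ± 9.36% and 83.1 ± 1.97% in HS578T (SD, n = 3 each). In MDA-MB-231 it was 79.5 ± 2.79% and 85.7 ± 0.788%, without overlap of the samples.

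Across the 12 knockdown comparisons, 84 of 456 pairs of a member and a comparison passed an adjusted p of 0.05, of which 56 were in MDA-MB-231, 15 in SUM159PT and 13 in HS578T. More of all genes passed in MDA-MB-231 too. Their share per comparison was 3.65 to 29.4% in MDA-MB-231, 1.4 to 17.9% in SUM159PT and 0.0356 to 18.7% in HS578T. Of the 38 members, 35 passed at least once, and TPI1, GAPDH and SLC16A3 in none. SLC2A3 passed most often, in 7 comparisons (6 higher, 1 lower), followed by EGLN3 in 6 (3 higher, 3 lower), and ANKRD37 and KDM3A in 5 each (4 higher, 1 lower). Of the 84 calls, 47 passed without any 1 sample of their comparison. In 4 cases a member passed in 1 direction with 1 reagent in all 3 lines, namely PFKP lower with shNRP1#3, ANKRD37 higher with siNRP1#3, and EGLN3 and SLC2A3 higher with siNRP1#5. Support differed between the lines, and each of these cases held a call that depended on single samples, as given below. How many of all genes passed at least once, or with 1 reagent in all 3 lines, was not counted. Both siRNAs of a line share its siNT samples and both shRNAs its shNT samples. In bulk RNA, a change in the share of cells that express a gene and a change of its RNA per cell cannot be told apart.

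**Figure D2:**
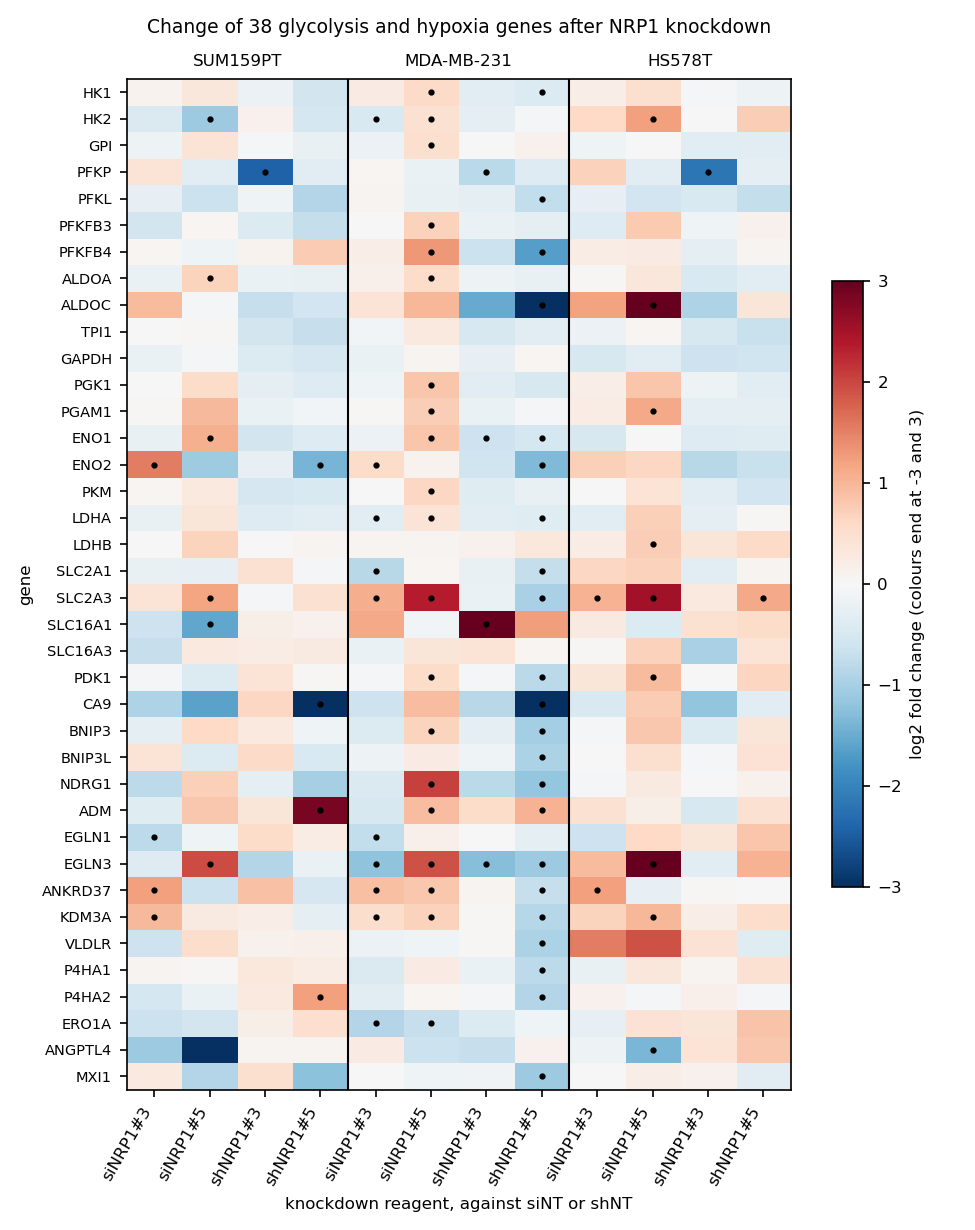
Log2 fold change (colour, ending at -3 and 3) of the 38 members in the 12 comparisons of an NRP1 reagent with siNT or shNT, with a dot where the adjusted p is under 0.05. The siNRP1#5 column of MDA-MB-231 is mostly above 0 (19 higher and 1 lower past the threshold) and its shNRP1#5 column mostly below 0 (1 higher and 21 lower).

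In MDA-MB-231, 1 target sequence went with opposite changes as siRNA and as shRNA. With siNRP1#5, 20 of 38 members passed (52.6%, 19 higher and 1 lower), where 29.4% of all 18800 genes tested did (14.4% higher, 14.9% lower), and their median log2 fold change was 0.46 against 0.01 over all genes. With shNRP1#5, 22 passed (57.9%, 1 higher and 21 lower), where 20.7% of all genes did (8.79% higher, 11.9% lower), with a median of -0.50 against 0.02 over all genes. The same 11 members were higher with siNRP1#5 and lower with shNRP1#5, namely HK1, PFKFB4, ENO1, LDHA, SLC2A3, PDK1, BNIP3, NDRG1, EGLN3, ANKRD37 and KDM3A, and ADM alone was higher with both. Tested directly, the shNRP1#5 effect was below the siNRP1#5 effect for 25 members and above it for 1, ERO1A (log2 difference 0.58), where 23.7% of all genes passed (11.4% higher, 12.2% lower), and the median difference over the members was -0.89. NRP1 was lowered more by the siRNA (-4.88) than by the shRNA (-1.05), and shNT held more NRP1 than siNT (log2 difference 1.23).

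**Figure D3:**
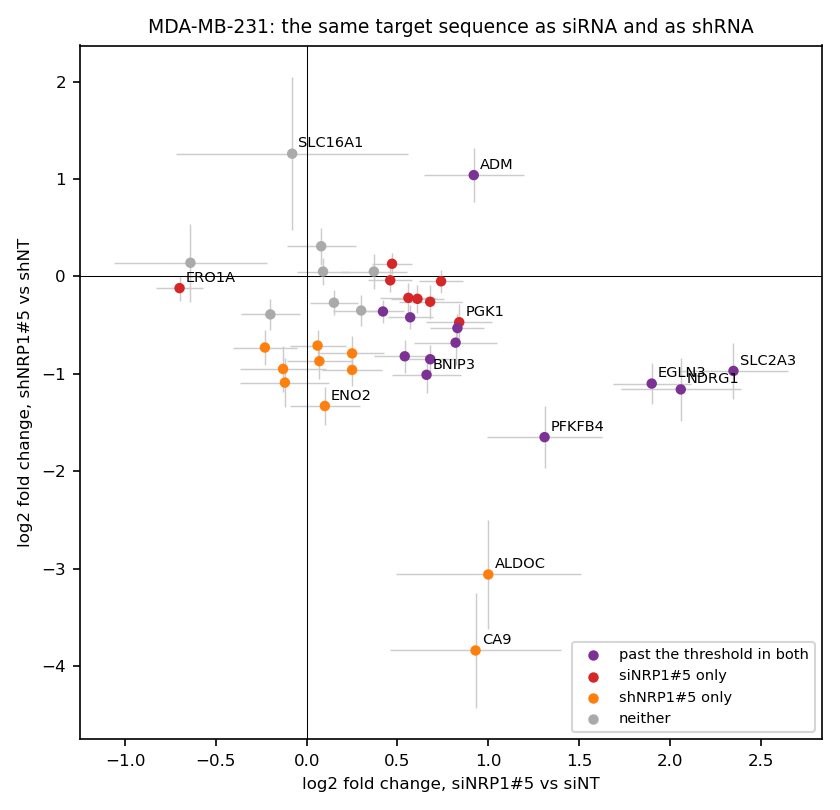
Log2 fold change of each of the 38 members in MDA-MB-231 with siNRP1#5 against siNT (horizontal) and with shNRP1#5 against shNT (vertical), with bars of 1 SE and colours for the comparison in which the adjusted p is under 0.05. The 11 members past the threshold in opposite directions lie at the lower right, and ADM at the upper right.

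Among the transporters, SLC2A3 passed with both deliveries of the #5 sequence. It read 26.6, 24.7 and 47.8 normalised CPM (counts scaled to a common library size by TMM) in siNT and 126, 115 and 260 in siNRP1#5, a log2 fold change of 2.35 (SE 0.302, adjusted p = 2.23e-05 by the edgeR quasi-likelihood test used throughout). It read 45.9, 70.2 and 64.8 CPM in shNT and 38.8, 24 and 28.9 in shNRP1#5, a change of -0.97 (SE 0.291, adjusted p = 0.0263). The groups did not overlap in either comparison, though the second call was lost without shNRP1#5 replicate 2 or 3 or shNT replicate 2 or 3 (log2 -1.17 to -0.83 over all samples left out). SLC2A1, the main glucose transporter by TPM, was lower with shNRP1#5 (301, 259 and 264 CPM against 442, 487 and 430, log2 -0.71) and with siNRP1#3 (226, 223 and 280 against 383, 466 and 476, log2 -0.84), with no overlap, and did not pass with siNRP1#5 (335, 430 and 595 CPM).

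Of the enzymes that carry glucose to triose phosphate, 4 of 8 were higher with siNRP1#5 and 3 were lower with shNRP1#5. HK1, the leading hexokinase, had a mean of 416 CPM in siNT, 612 in siNRP1#5, 515 in shNT and 381 in shNRP1#5, with log2 changes of 0.57 and -0.42, the second of which was lost without any of the same 4 samples (log2 -0.51 to -0.37). ALDOC, a minor aldolase by TPM, fell furthest. It read 25.6, 42.2 and 46.6 CPM in shNT and 7.29, 3.01 and 3.27 in shNRP1#5, a change of -3.06 (SE 0.555, adjusted p = 0.00197), so that every shNRP1#5 sample lay under every shNT sample. With siNRP1#5 it read 34.1, 37.4 and 119 CPM against 19.9, 22.8 and 53.4 in siNT and did not pass (log2 1.00, adjusted p = 0.164).

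Both PFK-2 genes, whose product fructose 2,6-bisphosphate speeds up glycolysis, were higher with siNRP1#5, and PFKFB4 was lower with shNRP1#5. PFKFB4 read 48.4, 51.8 and 83.5 CPM in siNT, 90.5, 123 and 239 in siNRP1#5 (log2 1.31, adjusted p = 0.00503), 62.3, 67 and 86.1 in shNT and 31.6, 15.7 and 21.1 in shNRP1#5 (log2 -1.65, adjusted p = 0.00221). No groups overlapped, and the 2 samples numbered 3 of the siRNA groups were the highest of their group.

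The enzymes from glyceraldehyde 3-phosphate to lactate followed the same pattern. With siNRP1#5, 5 of these 8 genes were higher (PGK1, PGAM1, ENO1, PKM and LDHA, log2 0.42 to 0.84), and with shNRP1#5, 3 were lower (ENO1, ENO2 and LDHA). ENO1 (enolase 1) read 3758, 4113 and 4191 CPM in siNT, 5265, 7986 and 7906 in siNRP1#5 (log2 0.83, adjusted p = 0.00032), 3669, 4670 and 4657 in shNT and 3306, 2854 and 2822 in shNRP1#5 (log2 -0.53, adjusted p = 0.0172). LDHA read 1886, 2144 and 2151 CPM in siNT, 2594, 3058 and 2474 in siNRP1#5, 2384, 2437 and 2616 in shNT and 2094, 1716 and 1953 in shNRP1#5. Groups did not overlap for either gene, but the shNRP1#5 calls of both were lost without shNRP1#5 replicate 2 or 3 or shNT replicate 2 or 3, and that of LDHA also without shNT replicate 1 (log2 -0.63 to -0.47 for ENO1 and log2 -0.42 to -0.29 for LDHA). The LDHA call with siNRP1#5 was lost without siNRP1#5 replicate 2 or siNT replicate 1 (log2 0.30 to 0.49). ENO2, the minor enolase, fell with shNRP1#5 from 157, 159 and 174 CPM to 69.1, 60.3 and 63.8 (log2 -1.33, SE 0.198, adjusted p = 0.00018) and read 113, 107 and 205 CPM with siNRP1#5 against 119, 110 and 171 in siNT.

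Among the hypoxia genes, EGLN3 passed with all 4 reagents of this line, and EGLN3 and NDRG1 passed in both directions. EGLN3 read 8.98, 10.5 and 14.8 CPM in siNT, 32.5, 36.2 and 58.3 in siNRP1#5 (log2 1.90, SE 0.216, adjusted p = 2.54e-06), 15.8, 16.9 and 18.5 in shNT and 9.77, 6.36 and 7.57 in shNRP1#5 (log2 -1.10, adjusted p = 0.00146). NDRG1 read 323, 286 and 601 CPM in siNT, 1154, 1309 and 2523 in siNRP1#5 (log2 2.06, adjusted p = 0.000231), 396, 539 and 565 in shNT and 295, 169 and 205 in shNRP1#5 (log2 -1.16, adjusted p = 0.0193). None of these groups overlapped with its control, and of these 4 calls only that of NDRG1 with shNRP1#5 was lost without 1 sample (shNRP1#5 replicate 2 or 3, shNT replicate 2 or 3, log2 -1.40 to -0.99). As direct differences between the 2 deliveries, EGLN3 gave -3.00 (SE 0.302, adjusted p = 1.73e-06) and NDRG1 -3.22 (SE 0.46, adjusted p = 0.000148).

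CA9, the membrane carbonic anhydrase that handles acid from metabolism, was very low with shNRP1#5. It read 5.14, 3.65 and 4.3 CPM in shNT and 0.37, 0.265 and 0.256 in shNRP1#5, a log2 change of -3.84 (SE 0.586, adjusted p = 0.000409). In siNT and siNRP1#5 it read 3.51, 3.19 and 11.5 and 7.23, 6.65 and 20.5 CPM, which overlapped and did not pass. VLDLR (24.6, 34 and 35.3 CPM in shNT, 16.1, 15.3 and 16.8 in shNRP1#5), the mitophagy receptors BNIP3 and BNIP3L (log2 -1.01 and -0.96), the collagen prolyl hydroxylases P4HA1 and P4HA2 (-0.79 and -0.87) and MXI1, a MAX-binding repressor (-1.09), were lower with shNRP1#5 too, each without overlap.

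KDM3A (a histone H3 lysine demethylase) and ANKRD37 passed with 3 of the 4 reagents of this line. KDM3A read 24, 24.2 and 36.8 CPM in siNT, 36.9, 43.8 and 39 in siNRP1#3 and 48.7, 42.7 and 42.5 in siNRP1#5, then 52.9, 48.4 and 57.8 in shNT and 30.2, 26.5 and 31.3 in shNRP1#5. ANKRD37 read 2.96, 3.43 and 4.39 CPM in siNT, 7.4, 6.79 and 5.62 in siNRP1#3, 4.24, 6.45 and 8.22 in siNRP1#5, 4.4, 4.61 and 5.23 in shNT and 3.53, 2.38 and 2.89 in shNRP1#5. Both genes were thus higher with either siRNA and lower with shNRP1#5, as SLC2A3 was, and of these groups only ANKRD37 with siNRP1#5 overlapped its control. The ANKRD37 call with shNRP1#5 (log2 -0.68, adjusted p = 0.0386) was lost without shNRP1#5 replicate 2 or 3 or any shNT sample (log2 -0.83 to -0.56), and that with siNRP1#5 without siNRP1#5 replicate 3 or siNT replicate 1 (log2 0.60 to 1.06). The KDM3A call with siNRP1#3 was lost without siNRP1#3 replicate 2 or siNT replicate 1 or 2 (log2 0.40 to 0.74). ADM went another way, with 43.2, 42.7 and 39 CPM in shNT and 84.3, 85.7 and 85.8 in shNRP1#5 (log2 1.04, adjusted p = 0.0134), and with 42.6, 54.7 and 114 CPM in siNRP1#5 against 25.6, 32.8 and 55 in siNT, where the groups overlapped and the call (log2 0.92, adjusted p = 0.0186) was lost without siNRP1#5 replicate 3 or siNT replicate 1 or 2 (log2 0.40 to 1.28).

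The siNRP1#5 and siNT samples numbered 3 were the highest of their group for EGLN3, NDRG1, PFKFB4, CA9 and ADM, among others. Of the 20 siNRP1#5 calls, 15 rested on groups that did not overlap, and the other 5, of ADM, ALDOA, ANKRD37, BNIP3 and PDK1, were lost without siNRP1#5 replicate 3. Between 15 and 23 members passed when any 1 sample was left out. Fitted on these 2 groups alone, 7 members passed, EGLN3, NDRG1, SLC2A3, PFKFB4, ENO1 and PGAM1 higher and ERO1A lower. The share of all genes passing in that fit is not given here. All 22 shNRP1#5 calls rested on groups that did not overlap, and between 15 and 22 members passed when any sample of the comparison was left out. How often the groups of all called genes overlapped was not counted, here or in the other comparisons. Whether the counts without overlap are particular to the members can therefore not be said.

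**Figure D4:**
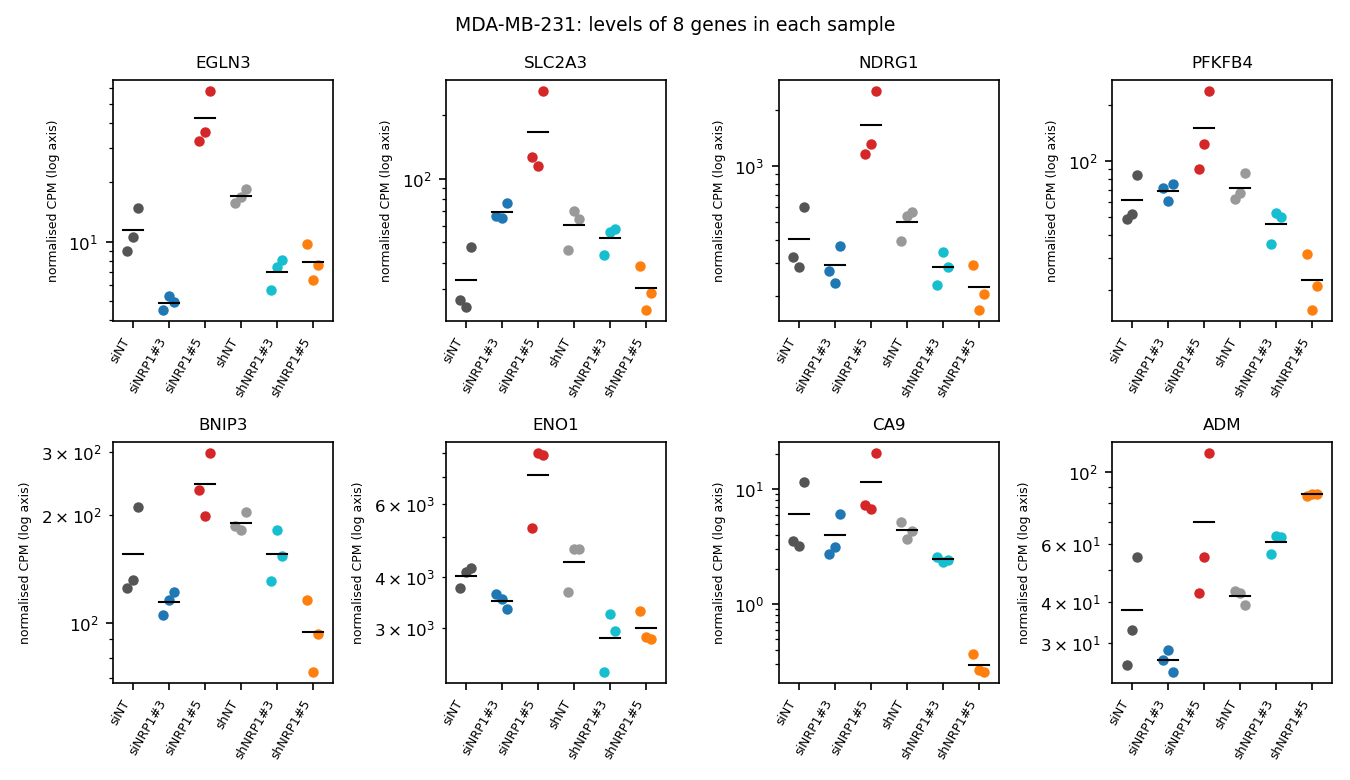
Normalised CPM (log axis) of 8 members in each MDA-MB-231 sample by group, with the group mean as a line. EGLN3, SLC2A3, NDRG1, PFKFB4, BNIP3 and ENO1 are highest in siNRP1#5, CA9 is at or under 0.37 CPM in the shNRP1#5 samples, and ADM is above its control in them.

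The #3 reagents, which share neither sequence nor control, passed for fewer members in MDA-MB-231. With siNRP1#3, 10 members passed (26.3%, 4 higher and 6 lower), where 25.7% of all genes did (11.4% higher, 14.3% lower). EGLN1 and EGLN3 were both lower, EGLN1 from 33.9, 35.2 and 36.3 CPM to 22.4, 21.4 and 17.7 (log2 -0.75) and EGLN3 to 4.5, 5.27 and 4.93 CPM (log2 -1.20, SE 0.219, adjusted p = 0.000528). SLC2A3 was higher, at 67, 65.3 and 77.1 CPM (log2 1.10, adjusted p = 0.0112), all above the siNT samples, though the call was lost without siNT replicate 1 or 2 (log2 0.92 to 1.46). ERO1A, the endoplasmic reticulum oxidase that forms disulfides, fell from 116, 105 and 134 CPM to 61.3, 69.6 and 58.8 (log2 -0.89, adjusted p = 6.83e-05), and it also fell with siNRP1#5, to 82.5, 58 and 76 CPM (log2 -0.70). HK2, the inducible hexokinase, was lower with siNRP1#3 (88.3, 89.4 and 95.6 CPM against 135, 126 and 120) and higher with siNRP1#5 (186, 144 and 188 CPM).

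With shNRP1#3, 4 members passed (10.5%, 1 higher and 3 lower), where 3.65% of all genes did (1.46% higher, 2.19% lower). EGLN3 fell from the shNT level to 5.68, 7.4 and 8.05 CPM (log2 -1.27, adjusted p = 0.00177), ENO1 to 2341, 3239 and 2942 CPM (log2 -0.61, lost without shNRP1#3 replicate 1 or 3 or shNT replicate 2 or 3, log2 -0.71 to -0.51), and PFKP fell as described below. SLC16A1 read 0.0163, 0.0833 and 0.205 CPM in shNT, which are 1, 5 and 15 counts, and 0.655, 1.07 and 1.55 in shNRP1#3 (log2 3.36, adjusted p = 0.0144, lost without shNRP1#3 replicate 3 or shNT replicate 1 or 2, log2 2.89 to 4.41). The 3 shNRP1#3 libraries held 0.046, 0.691 and 1.46% of the level of SUM159PT marker genes, in the order of the SLC16A1 values, and with other-line RNA subtracted the change was 1.84 and did not pass (adjusted p = 0.49). Fitted on these 2 groups alone, 19 members passed (3 higher and 16 lower), and without a filter on low counts 14 did (2 higher and 12 lower). The share of all genes passing in these fits is not given here, and the 3.65% belongs to the main fit only.

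PFKP, the platelet-type phosphofructokinase that commits glucose to glycolysis, was lower with shNRP1#3 in all 3 lines. In SUM159PT it read 449, 363 and 513 CPM in shNT and 89.7, 64.9 and 89.8 in shNRP1#3 (log2 -2.43, SE 0.254, adjusted p = 0.000109). In HS578T it read 274, 324 and 265 CPM in shNT and 71.5 and 59.3 in shNRP1#3 (log2 -2.16, SE 0.276, adjusted p = 0.00484), and in MDA-MB-231 589, 718 and 719 CPM in shNT and 347, 407 and 395 in shNRP1#3 (log2 -0.82, SE 0.162, adjusted p = 0.00642).
The groups were apart in each line, and the 3 changes were unequal (adjusted p = 0.00496), with the value nearest to 0 in MDA-MB-231. PFKP was the only member past the threshold with shNRP1#3 in SUM159PT (where 1.4% of all genes passed, 0.339% higher and 1.06% lower) and in HS578T (0.0356%, 7 of 19661 genes, 0.00509% higher and 0.0305% lower). The HS578T call was lost when either shNRP1#3 sample was left out (log2 -2.30 to -2.03), and with the 2 groups fitted alone (adjusted p = 0.2), and gave -2.20 (adjusted p = 0.0185) with other-line RNA subtracted. PFKP was not called with siNRP1#3 in any line, where it read 425, 364 and 410 CPM in SUM159PT against 280, 270 and 359 in siNT, 510, 352 and 634 in HS578T against 253, 276 and 398, and 608, 585 and 699 in MDA-MB-231 against 562, 594 and 688. None of the siNRP1#3 groups had a mean below its siNT mean.

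**Figure D5:**
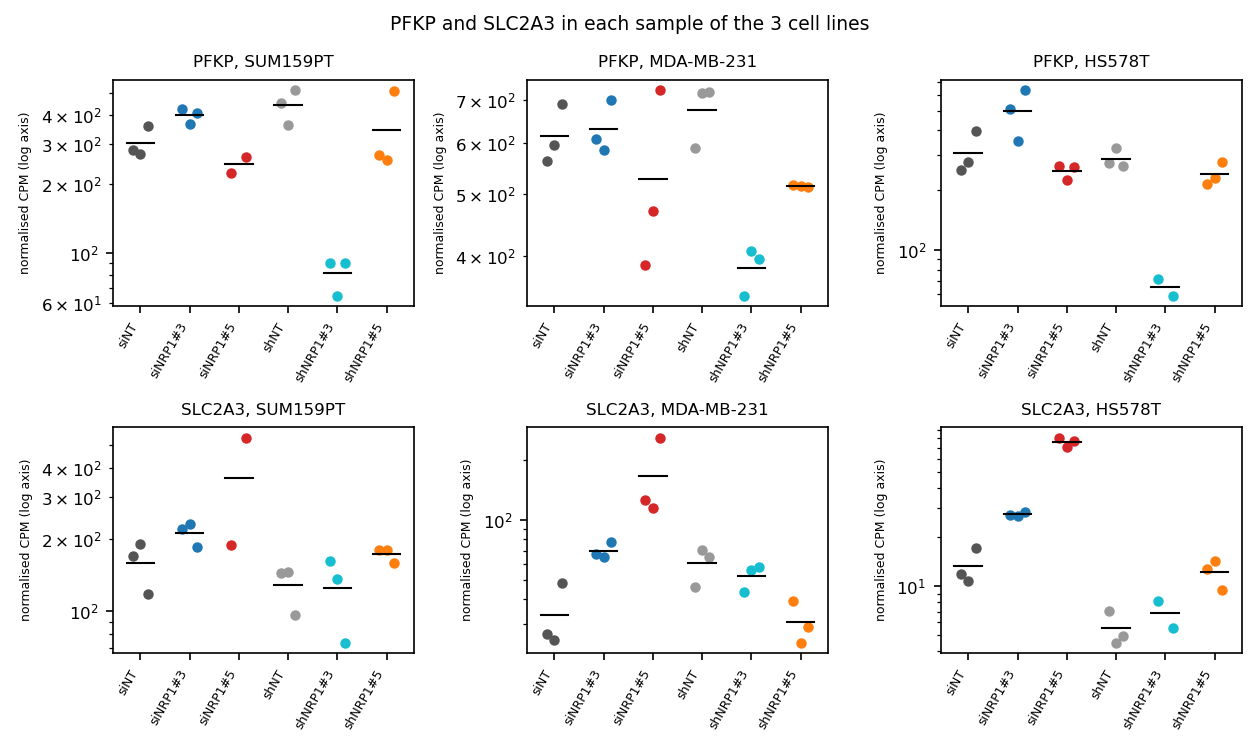
Normalised CPM (log axis) of PFKP (top) and SLC2A3 (bottom) in each sample of the 3 lines, with the group mean as a line. PFKP is lowest in shNRP1#3 of SUM159PT (64.9 to 89.8) and HS578T (59.3 and 71.5), and SLC2A3 is highest in siNRP1#5 of MDA-MB-231 and HS578T.

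SLC2A3 was higher with siNRP1#5 in all 3 lines, with different support. In HS578T it read 11.9, 10.8 and 17.2 CPM in siNT, 27.2, 26.8 and 28.6 in siNRP1#3 (log2 1.05, adjusted p = 0.0194) and 81.1, 71 and 77 in siNRP1#5 (log2 2.52, SE 0.25, adjusted p = 3.68e-05), with no overlap. The siNRP1#3 call was lost without siNRP1#3 replicate 1 or siNT replicate 1 or 2 (log2 0.92 to 1.28). With other-line RNA subtracted, the HS578T changes were 1.09 (adjusted p = 0.0278) with siNRP1#3 and 2.76 (adjusted p = 2.01e-05) with siNRP1#5. That subtraction took MDA-MB-231 RNA at its siNT level, where SLC2A3 is lower than with either siRNA. The part of RNA from siRNA-treated MDA-MB-231 cells in these changes was not tested. In SUM159PT it read 170, 191 and 118 CPM in siNT and 189 and 535 in siNRP1#5 (log2 1.19, adjusted p = 0.0321), so that the groups overlapped and the change was 0.26 without siNRP1#5 replicate 3. SLC2A3 was also the 1 member called with shNRP1#5 in HS578T, where it read 7.08, 4.51 and 4.97 CPM in shNT and 12.7, 14.2 and 9.48 in shNRP1#5 (log2 1.13, adjusted p = 0.0365, where 0.946% of all genes passed, 0.275% higher and 0.671% lower). That call was lost with other-line RNA subtracted (adjusted p = 0.07), with the siNRP1#5 samples left out of the fit (adjusted p = 0.076), or without shNRP1#5 replicate 1 or 2 or shNT replicate 2 or 3 (log2 1.00 to 1.32). The SLC2A3 change with shNRP1#5, a fall in MDA-MB-231, was unequal in the 3 lines (adjusted p = 0.00655).

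In SUM159PT, CA9 was lower and ADM higher with shNRP1#5. With that reagent, 4 members passed (10.5%, 2 higher and 2 lower), where 5.94% of all genes did (3.24% higher, 2.7% lower). CA9 fell from 9.08, 16.6 and 7.69 CPM in shNT to 0.786, 0.908 and 0.876 (log2 -3.66, SE 0.568, adjusted p = 0.00116), and ADM rose from 10.4, 12.4 and 10.3 to 63.2, 106 and 62.3 (log2 2.84, SE 0.381, adjusted p = 0.000337). P4HA2 rose from 61.9, 69 and 56.8 CPM to 160, 162 and 110 (log2 1.23), and ENO2 fell from 56.8, 50.2 and 59.2 to 15.4, 19.8 and 26.9 (log2 -1.39, adjusted p = 0.0207). None of these groups overlapped, and only the ENO2 call was lost without 1 sample (shNRP1#5 replicate 1 or 2, shNT replicate 1 or 3, log2 -1.63 to -1.21). CA9, ENO2 and ADM thus changed in the same direction with shNRP1#5 in SUM159PT and MDA-MB-231, while P4HA2 changed in opposite directions (adjusted p = 0.00126 for unequal changes). In HS578T, CA9 with shNRP1#5 read 129, 18.5 and 102 CPM against 125, 42 and 140 in shNT.

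With siNRP1#5 in SUM159PT, 6 members passed (15.8%, 4 higher and 2 lower), where 17.9% of all genes did (9.0% higher, 8.89% lower). SLC16A1 fell from 184, 101 and 156 CPM to 46.2 and 51.6 (log2 -1.57, SE 0.255, adjusted p = 0.00116), and its share of the SLC16A1 and SLC16A3 TPM from 26.4% (SD 10.6, n = 3) to 9.96% (SD 1.86, n = 2). ENO1 rose from 2887, 2937 and 4043 CPM to 6193 and 7428 (log2 1.06), and HK2 fell from 115, 121 and 61.2 to 44 and 49.1 (log2 -1.08), in both cases without overlap. EGLN3 read 9.21, 9.86 and 23.9 CPM in siNT and 12.4 and 98.4 in siNRP1#5 (log2 1.95, adjusted p = 0.027), which rested on 1 of the 2 samples and gave -0.19 without replicate 3. Fitted on these 2 groups alone, 0 members passed by the edgeR quasi-likelihood test (7 at an unadjusted p under 0.05), while DESeq2 on all groups called 11. Shares of all genes in these fits are not given here. HK2 was lost without either siNRP1#5 sample or without siNT replicate 1 or 2 (log2 -1.34 to -0.92).
Tested between deliveries of the same sequence in SUM159PT, 3 members differed (7.89%, where 2.51% of all genes did, 1.54% higher and 0.962% lower), with ENO1 and NDRG1 lower as shRNA (log2 differences -1.44 and -1.72) and SLC16A1 higher (1.71).

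With siNRP1#3 in SUM159PT, 4 members passed (10.5%, 3 higher and 1 lower), where 8.66% of all genes did (3.16% higher, 5.5% lower). ENO2 rose from 31.9, 69.7 and 32.3 CPM to 140, 139 and 108 (log2 1.53, adjusted p = 0.0101), ANKRD37 from 1.91, 3.14 and 2.48 to 4.59, 5.72 and 7.41 (log2 1.24), and KDM3A from 23.4, 11.7 and 22 to 38.7, 36.4 and 36.5 (log2 0.97). EGLN1, the main HIF prolyl hydroxylase in most cells, fell from 25, 25.9 and 24.1 CPM to 15.8, 13.4 and 14.4 (log2 -0.78). The groups did not overlap for any of the 4 genes, but only ENO2 passed without each sample in turn, and KDM3A passed in 1 of 6 such fits (log2 0.71 to 1.14), EGLN1 in 2 (log2 -0.84 to -0.72) and ANKRD37 in 4 (log2 1.05 to 1.42). ANKRD37 was higher with siNRP1#3 in HS578T as well, at 12.1, 9.47 and 13.4 CPM against 4.73, 5.98 and 4.26 (log2 1.22, adjusted p = 0.0193), where 2 members (5.26%, both higher) and 4.65% of all genes (2.31% higher, 2.34% lower) passed, and that call was lost without siNRP1#3 or siNT replicate 1 or 3 (log2 1.11 to 1.37) and gave 1.28 (adjusted p = 0.0269) with other-line RNA subtracted.

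In HS578T with siNRP1#5, 9 members passed (23.7%, 8 higher and 1 lower), where 18.7% of all genes did (10.1% higher, 8.53% lower), in the libraries with most MDA-MB-231 RNA. The median log2 fold change of the members was 0.47 against 0.03 over all genes, and 30 of the 38 were above 0. HK2 read 52.3, 45.7 and 47.5 CPM in siNT and 116, 121 and 107 in siNRP1#5 (log2 1.24, SE 0.232, adjusted p = 0.00205), and KDM3A 23.3, 21.3 and 13.6 against 32.7, 42.5 and 41.4 (log2 1.00, lost without siNRP1#5 replicate 2 or 3 or siNT replicate 3, log2 0.80 to 1.15). With other-line RNA subtracted, HK2 (1.29), KDM3A (1.16), PGAM1 (1.09), LDHB (0.90) and SLC2A3 were still called higher and ANGPTL4, a lipase inhibitor, lower (-2.24 against -1.38 as measured), and PFKP was now called lower (-0.89). ALDOC read 0.568, 0.555 and 1.64 CPM in siNT and 12.8, 5.19 and 4.38 in siNRP1#5 (log2 3.01, adjusted p = 0.00557), in the order of the MDA-MB-231 share, and gave 1.95 (adjusted p = 0.304) after subtraction. EGLN3 read 0.227, 0.438 and 0.977 CPM in siNT and 7.26, 6.94 and 2.5 in siNRP1#5 (log2 3.32, adjusted p = 0.0209, lost without siNRP1#5 or siNT replicate 1 or 2, log2 2.97 to 4.03) and gave 3.35 with an adjusted p of 0.0527 after subtraction, and PDK1 gave 0.85 (adjusted p = 0.0921). All these subtractions used siNT levels of the other lines. SLC2A3, HK2, KDM3A, PGAM1, EGLN3 and PDK1 were higher with siNRP1#5 in MDA-MB-231. RNA of such cells would be subtracted too little for these genes, and whether the libraries held it was not tested.
ANGPTL4 itself was at 4.69, 5.31 and 5.8 CPM in siNT and 1.57, 2.06 and 2.42 in siNRP1#5, and its call was lost without any 1 of the 6 samples. Between deliveries of the #5 sequence in HS578T, 0 members passed by the edgeR quasi-likelihood test (0.854% of all genes did, 0.163% higher and 0.692% lower), with 9 at an unadjusted p under 0.05 and 3 past the threshold by DESeq2.

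The non-targeting controls differed between deliveries as well, in vector, selection and harvest at once. In HS578T, 7 members passed for shNT against siNT (18.4%, 6 higher and 1 lower), where 17.9% of all genes did (9.14% higher, 8.8% lower), and the 6 that were higher were enzymes from glucose to lactate or PDK1, a pyruvate dehydrogenase kinase. LDHA read 644, 654 and 955 CPM in siNT and 2651, 1544 and 2570 in shNT (log2 1.60, SE 0.305, adjusted p = 0.00284), PGK1 442, 606 and 880 against 1939, 1171 and 1476 (log2 1.26), and PDK1 7.57, 6.51 and 7.22 against 19.4, 13 and 21.3 (log2 1.35). PGAM1 (1.24), TPI1 (0.88) and GAPDH (0.77) were the others, and SLC2A3 was lower (-1.25). All 7 pairs of groups were apart. The calls of PGK1 (log2 1.06 to 1.56), TPI1 (log2 0.70 to 1.05) and GAPDH (log2 0.66 to 0.87) were each lost in 4 of the 6 fits that left out 1 sample, those of PGK1 without shNT replicate 1 or 3 or siNT replicate 1 or 2 and the others without shNT replicate 2 or 3 or siNT replicate 1 or 2. With other-line RNA subtracted, LDHA gave 1.62, PGK1 1.27, PDK1 1.37, PGAM1 1.26 and SLC2A3 -1.27, all still called, while GAPDH (adjusted p = 0.051) and TPI1 (adjusted p = 0.055) were no longer called.

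LDHA was also higher in shNT of SUM159PT, at 2880, 2507 and 3073 CPM against 1012, 968 and 1748 (log2 1.16, adjusted p = 0.0138, lost without shNT replicate 3 or siNT replicate 1 or 2, log2 0.98 to 1.48), where 6 members (15.8%, 2 higher and 4 lower) and 14.4% of all genes (5.96% higher, 8.45% lower) passed. P4HA2 (161, 250 and 132 CPM in siNT, 61.9, 69 and 56.8 in shNT, log2 -1.56), P4HA1 (96.1, 43.2 and 72.4 against 30, 29 and 29.5, log2 -1.28, lost without shNT replicate 3 or siNT replicate 1) and SLC16A3 (270, 414 and 218 against 141, 117 and 121, log2 -1.28) were lower, without overlap.
In MDA-MB-231, 6 members passed between the controls (15.8%, 1 higher and 5 lower), where 20.6% of all genes did (10.7% higher, 9.85% lower). SLC16A3 was lower in shNT there too, at 331, 338 and 342 CPM against 585, 712 and 741 (log2 -1.04, adjusted p = 0.000619), ERO1A was lower (74.5, 63.4 and 73.9 against 116, 105 and 134, log2 -0.78), and KDM3A was higher (log2 0.88). SLC16A1 was lower, from 0.474, 0.509 and 0.991 CPM in siNT (log2 -2.65, adjusted p = 0.0175, and 0.087 with other-line RNA subtracted).

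The genes that regulate HIF, other hypoxia targets and other sugar metabolism genes were read in the same tests. Of all genes, 29.4% passed with siNRP1#5 and 20.7% with shNRP1#5 in MDA-MB-231, 17.9% and 5.94% in SUM159PT, and 18.7% with siNRP1#5 in HS578T, and the counts of the lists are to be read against these shares. Of 11 HIF regulators tested, 5 passed with siNRP1#5 in MDA-MB-231 (3 higher and 2 lower) and 5 with shNRP1#5 (1 higher and 4 lower), while SUM159PT had 5 with siNRP1#5 (2 higher and 3 lower) and HS578T 2 (1 higher and 1 lower). In MDA-MB-231, HIF1A, the alpha subunit itself, did not pass with siNRP1#5 or shNRP1#5 (log2 0.34 and -0.32, adjusted p = 0.116 and 0.17, edgeR quasi-likelihood test). Its direct difference between these deliveries passed (log2 -0.66, adjusted p = 0.0404). HIF1A was lower with siNRP1#3 (-0.72, adjusted p = 0.00268), as was EPAS1, its relative HIF-2 alpha (-1.18). The beta subunit gene ARNT was lower with shNRP1#5 (-0.49, adjusted p = 0.0102) and gave -0.09 with siNRP1#5. The direct differences of EPAS1 and ARNT did not pass (-0.53 and -0.40, adjusted p = 0.345 and 0.115). HIF1AN, the asparagine hydroxylase that restrains HIF, was lower with siNRP1#5 in SUM159PT, MDA-MB-231 and HS578T (log2 -2.15, -1.94 and -1.06) and with shNRP1#5 in SUM159PT and MDA-MB-231 (-1.20 and -0.42), with -0.86 and an adjusted p of 0.0711 in HS578T. ARNT2, a beta subunit, was lower with siNRP1#5 in SUM159PT and MDA-MB-231 (-2.42 and -1.63) and with shNRP1#5 in MDA-MB-231 (-1.13), and ELOC, a part of the VHL complex, was higher with siNRP1#5 in all lines (1.33, 0.36 and 0.65).

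Of 24 other hypoxia targets tested in MDA-MB-231, 7 were higher and 5 lower with siNRP1#5 (median log2 0.25) and 2 were higher and 11 lower with shNRP1#5 (median -0.47), while with shNRP1#5 in SUM159PT 4 of 23 were higher and 2 lower. CA12, a carbonic anhydrase like CA9, was lower with siNRP1#3, siNRP1#5 and shNRP1#5 in SUM159PT (log2 -2.89, -2.01 and -2.02) and in MDA-MB-231 (-1.57, -1.28 and -1.01), and with siNRP1#3 in HS578T (-1.36). IGFBP3 (an IGF-binding protein) and LOX (a collagen cross-linking oxidase) were higher with shNRP1#5 in SUM159PT (3.02 and 2.40). Of 24 other sugar metabolism genes tested in MDA-MB-231, 3 were higher and 5 lower with siNRP1#5 and 3 higher and 7 lower with shNRP1#5. MPC1, a subunit of the mitochondrial pyruvate carrier, was lower with siNRP1#5 in SUM159PT, MDA-MB-231 and HS578T (log2 -3.89, -3.49 and -1.46), while with shNRP1#5 it gave -0.03, 0.78 and 0.03. The HS578T values of these genes come from libraries with RNA of other lines, whose part in them was not tested.

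PKM, the last enzyme before pyruvate, is known for a pair of mutually exclusive exons. Transcripts with the exon of PKM-201 (chr15:72202454-72202620, GRCh38, minus strand) held 63.6 to 75.2% of PKM transcript abundance as group means, and those with the alternative exon (chr15:72203022-72203188) held 0.923 to 6.61%, with the rest in transcripts that have neither. The alternative exon's share was highest in HS578T siNT (6.61%, SD 0.642) and lowest in MDA-MB-231 shNRP1#3 (0.923%, SD 0.206). With siNRP1#5 it stood at 1.06% (SD 0.0551) in MDA-MB-231 against 2.46% (SD 0.153) in siNT, with no overlap of the samples. These shares were estimated from short reads and were not tested.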

How the data were processed

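RNA was sequenced from 52 samples of 3 cell lines. Per the labels, the authors processed reads with FastQC 0.11.9, Trim Galore 0.6.5, STAR 2.7.2b and RSEM 1.3.3 against GRCh38, and removed 2 outlying samples, not analysed here. The authors deposited expected counts and TPM per gene, both as RSEM estimates, and isoform percent per transcript, which was summed for PKM by exon with GENCODE 44. Normalised CPM and FPKM and the transcript count and TPM tables were not used.

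Expected counts were rounded to whole numbers. In each line, genes were kept by filterByExpr (20067 for SUM159PT, 18800 for MDA-MB-231, 19661 for HS578T), scaled by TMM and tested with edgeR 4.0.16 (glmQLFit with robust estimation, glmQLFTest) in R 4.3.3 over all 6 groups, on the log2 scale, with Benjamini-Hochberg adjustment over all genes and a threshold of 0.05. The control samples of all lines were compared in the same way (20686 genes), and inequality of a change between lines was tested as an interaction over all lines (23416 genes). The same pipeline was tested on simulated data. DESeq2 1.42.0, RLE scaling, no filter on low counts, only the groups compared, a replicate block, added pseudogene counts and leaving out each sample were tried as alternatives. Subtraction of other-line RNA and leaving out the HS578T siNRP1#5 samples were added after seeing the data. The amount subtracted was the marker level times the mean of the other line's siNT or shNT samples, by delivery. Other-line RNA was measured from genes with a mean of at least 20 CPM in the controls of a line, at most 0.5 CPM in those of the line sampled and at most 0.1 times the first in the third line, a definition widened after seeing the data.

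The members and gene lists were chosen with earlier results of these data known. Members were named by a rule of size and passing the threshold, which gave 32 of the 38, and others are named with the group they belong to. Tables and plots were made in Python 3.11.15 with pandas 2.3.3, numpy 2.4.6, scipy 1.17.1 and matplotlib 3.10.9. Depth limits precision for members of few counts, such as SLC16A1 in MDA-MB-231. Reads of near-identical pseudogenes could be split from their parents by the estimation, with pseudogenes of SLC2A3 reaching 7.8% of its counts and those of BNIP3 3.25%.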

Additional observations from a re-analysis of the deposited data

Results flagged for a closer look

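The change of a member from its control was tested for being unequal in the 3 cell lines, reagent by reagent, and values are given in the order SUM159PT, MDA-MB-231 and HS578T as log2 fold changes, with the adjusted p of the edgeR quasi-likelihood test over all genes. With shNRP1#3, 2 members passed (5.26%, where 0.747% of all genes did), with siNRP1#3 1 (2.63%, where 3.42% did), with siNRP1#5 8 (21.1%, where 18.2% did) and with shNRP1#5 9 (23.7%, where 3.81% did). Without any 1 replicate number in all lines, 0 to 1, 0, 3 to 6 and 0 to 4 passed, in the same order.

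With shNRP1#5, ADM gave 2.84, 1.04 and 0.46 (adjusted p = 0.00872), P4HA2 1.23, -0.87 and -0.04 (0.00126), and PFKFB4 0.75, -1.65 and 0.08 (0.00532). ALDOC gave -0.57, -3.06 and 0.37 (0.0191), BNIP3 -0.12, -1.01 and 0.37 (0.0497), and PDK1 0.03, -0.82 and 0.64 (0.0196). KDM3A gave -0.28, -0.85 and 0.53 (0.0331), SLC2A3 0.45, -0.97 and 1.13 (0.00655), and HK2 -0.52, -0.04 and 0.73 (0.0279).

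With siNRP1#5, HK2 gave -1.08, 0.46 and 1.24 (adjusted p = 1.42e-05), and it passed within each line. ERO1A gave -0.56, -0.70 and 0.43 (0.00389), NDRG1 0.72, 2.06 and 0.28 (0.00939), and ANKRD37 -0.65, 0.82 and -0.25 (0.0188). PDK1 gave -0.40, 0.54 and 0.95 (0.0195), ENO2 -1.07, 0.10 and 0.63 (0.024), ENO1 1.06, 0.83 and 0.02 (0.0351), and ALDOC -0.03, 1.00 and 3.01 (0.0263). The HS578T values of this group come from the libraries with 13.3 to 26.1% of the MDA-MB-231 marker level, whose part in these tests was not tested.

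With siNRP1#3, HK2 gave -0.43, -0.46 and 0.60 (adjusted p = 0.0452). With shNRP1#3, PFKP gave -2.43, -0.82 and -2.16 (0.00496) and SLC16A1 0.17, 3.36 and 0.45 (0.0146), the latter from 1, 5 and 15 counts in the MDA-MB-231 shNT libraries.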

How the results depend on the processing

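Of 157 alternative counts of members called, 125 were within 1.5 times the reported one and 32 were not. Shares of all genes under the alternatives are not given, so these counts show only how far the calls of members moved. DESeq2 called 7 with siNRP1#3, 11 with siNRP1#5 and 7 with shNRP1#5 in SUM159PT, 2 with shNRP1#5 in HS578T, and 9 and 3 between deliveries of the #5 sequence in SUM159PT and HS578T. With no filter on low counts, 7 were called with shNRP1#5 in SUM159PT, 14 with shNRP1#3 in MDA-MB-231, 2 with shNRP1#3 in HS578T, 13 between the HS578T controls, 8 and 7 between deliveries in SUM159PT and HS578T, and 5, 13, 4 and 14 for unequal changes in the 3 lines with siNRP1#3, siNRP1#5, shNRP1#3 and shNRP1#5. With only the groups compared in the fit, 1, 0 and 9 were called in SUM159PT (siNRP1#3, siNRP1#5, shNRP1#5), 7 and 19 in MDA-MB-231 (siNRP1#5, shNRP1#3), 0 with either shRNA in HS578T, 10 and 12 between the controls of MDA-MB-231 and HS578T, and 0 between deliveries in SUM159PT, where those edgeR counts of 0 had 3 to 15 members at an unadjusted p under 0.05. The replicate block gave 7 with shNRP1#5 in SUM159PT, 13 between the HS578T controls and 2 between deliveries in HS578T, and moved no other count of members by over 1.5 times. Leaving out the HS578T siNRP1#5 samples or subtracting other-line RNA gave 0 with shNRP1#5 in HS578T, with 9 at an unadjusted p under 0.05 in each. SUM159PT against MDA-MB-231 gave 16 on siNT samples only. Leaving out 1 sample gave 1 to 5, 2 to 10, 1 to 1 and 3 to 4 calls in SUM159PT (siNRP1#3, siNRP1#5, shNRP1#3, shNRP1#5), 6 to 9, 15 to 23, 2 to 4 and 15 to 22 in MDA-MB-231, and 0 to 3, 4 to 6, 0 to 1 and 0 to 1 in HS578T. Between the controls of a line it gave 2 to 8, 4 to 7 and 4 to 10, and between deliveries 0 to 6, 23 to 27 and 0 to 1, in the same order of lines. Leaving out a replicate number in all lines gave 25 to 29, 29 to 33 and 27 to 29 between lines (SUM159PT and HS578T against MDA-MB-231, HS578T against SUM159PT) and 0 to 0, 3 to 6, 0 to 1 and 0 to 4 for unequal changes with the 4 reagents. Of 2643 alternative values of 226 named log2 fold changes, 2313 kept their direction and their side of the threshold, 326 kept the direction only, and 4 turned: EGLN3 in SUM159PT with siNRP1#5 gave -0.19 without siNRP1#5 replicate 3 (2.75 without replicate 2), and between the controls of the lines GPI gave -0.04 in HS578T against MDA-MB-231 on siNT samples only, PGK1 0.15 in the same pair on shNT samples only, and PDK1 0.29 in HS578T against SUM159PT on shNT samples only. The cause of these shifts was not tested. Same-numbered samples deviated together (correlation over 0.1) in 25 of 40 pairs in SUM159PT, 18 of 45 in MDA-MB-231 and 16 of 40 in HS578T. Of up to 3 numbers, 14 of 17, 11 of 18 and 10 of 17 samples correlated best with their own. Median correlations were 0.18, 0.0713 and 0.0576 for the same number and -0.0685, -0.046 and -0.0389 for other numbers. Samples of the same number thus tended to deviate together, most in SUM159PT. The labels do not say whether they were handled together. The main tests leave this out, and the replicate block is given only here. RLE scaling moved the median of all genes by at most 0.08.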

Other observations

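Paralogue shares moved with the reagents, given here as the mean share of the pair's TPM with its SD and without a test. PFKP held 74.3% (SD 4.12, n = 3) of the PFKP and PFKL TPM in shNT of SUM159PT and 38.2% (SD 5.79, n = 3) in shNRP1#3, and 50.2% (SD 3.85, n = 3) and 26.2% (SD 6.5, n = 2) in HS578T, so that PFKL led in the shNRP1#3 samples of both lines. In MDA-MB-231 the share was 85.2% (SD 1.27) in shNT and 80.1% (SD 0.47) in shNRP1#3 (n = 3 each). SLC2A1 held 95% (SD 1.55) against SLC2A3 in siNT of MDA-MB-231, 84.1% (SD 1.29) in siNRP1#3 and 82% (SD 3.33) in siNRP1#5, and 93.1% (SD 1.77), 91.2% (SD 2.92) and 80.5% (SD 1.13) in the same groups of HS578T (n = 3 each), as measured in libraries that held RNA of other lines, whose part was not tested. EGLN1 held 66% (SD 5.73) against EGLN3 in siNT of MDA-MB-231 and 37.5% (SD 10) in siNRP1#5, and 59.8% (SD 2.94) in shNT, 79.5% (SD 1.88) in shNRP1#3 and 74.1% (SD 3.91) in shNRP1#5 (n = 3 each).

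In HS578T the shRNA samples numbered 1 were the highest of their group for VLDLR and P4HA1, whereas CA9 and PDK1 were not highest in the shNT sample of that number. VLDLR read 11.6 CPM in that shNT sample against 1.3 and 1.89 in the others, 9.88 against 3.43 in shNRP1#3, and 8.05 against 2 and 1.44 in shNRP1#5. P4HA1 read 160, 42 and 82.5 CPM in shNT, 140 and 64 in shNRP1#3, and 214, 89.3 and 84.5 in shNRP1#5.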
